A study of Mus musculus with 2 samples.

Results

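Chemokines and their receptors were followed in mouse liver after hepatocyte deletion of Lpcat3, the enzyme that puts polyunsaturated fatty acids into membrane phospholipids. The members were all probe sets whose gene symbol in the platform annotation begins with Ccl, Cxcl, Ccr, Cxcr, Xcl or Xcr and a digit, or is Cx3cl1, Cx3cr1, Ccrl2 or one of Ackr1 to Ackr4. This gave 91 of 45101 probe sets, 55 for ligands and 36 for receptors. Of these, 87 carried a single gene symbol and stood for 55 of 18193 genes, 33 ligands and 22 receptors. The other 4, all of ligands, were annotated to several near-identical genes and were kept apart.

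The L-Lpcat3 KO mice carried the floxed Lpcat3 alleles (Lpcat3fl/fl) and Albumin-Cre, which deletes the gene in hepatocytes and leaves it in the other cells of the liver. The controls were Lpcat3fl/fl mice without Cre. All mice were males of 16 weeks that had been switched to a western diet at 7 weeks of age, stayed on it for 9 weeks and went without food for 6 h before the livers were taken. Each genotype was 1 pool of 5 livers on 1 Affymetrix array, so the comparison is of 1 sample with 1 sample, it has no replicate check, and no p-value can be given.

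Chemokines are small secreted proteins that steer the migration of leukocytes, and each leukocyte type answers to those whose G protein-coupled receptors it carries. They are grouped into CC, CXC, XC and CX3C families by the spacing of their first cysteines. Atypical receptors bind chemokines without activating G proteins and remove or display them. In liver, hepatocytes, Kupffer cells, endothelial and stellate cells can all release chemokines, while most of the receptors are carried by leukocytes.

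Signals are MAS5 intensities in arbitrary units, scaled by the authors to a trimmed mean of 500 on both arrays. Values below the median of all values, 86.6, were raised to that floor, and a ratio with 1 array below it is a bound, which enters counts and medians as such. A gene was measured if its probe set of highest mean signal reached the floor on at least 1 array. Between probe sets of the same gene the log2 ratio had a pooled SD of 0.29 (4476 genes). It stands in for measurement error and leaves out the spread between mice. Lpcat3 had a signal of 2198 in L-Lpcat3 KO liver and 5173 in Lpcat3fl/fl control liver, a log2 ratio of -1.23. Whether its probe set detects the exons that Cre removes was not given, which limits this check of the genotype. The 9 hepatocyte markers on the array were all far above the floor on both arrays.

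Of the 33 ligand genes, 18 were measured and 15 lay below the floor on both arrays. Cxcl13, Ccl6 and Ccl5 were higher by 2-fold or more in L-Lpcat3 KO liver and no ligand was lower by that much, so 3 of 18 measured ligands were called. Of all 12290 measured genes, 2.70% were higher by 2-fold or more and 0.700% lower. Among genes with a mean signal under 400, where Cxcl13 and Ccl5 lie, the shares were 4.48% and 1.08%. At 1.5-fold, Ccl2 and Cxcl16 joined the higher ligands, making 5, and no ligand was lower, beside 9.07% and 3.83% of all measured genes. The median log2 ratio of the measured ligands was 0.23, against 0.01 over all measured genes. Measured genes with a mean signal under 200 had a median of 0.10, and those from 200 to 400 had 0.07. With a loess correction the ligand median was 0.15. By any amount, 14 of 18 ligands were higher, or 13 when the log2 ratios were median-centred, quantile-normalised or corrected by loess, since Ccl4 then changed sign. The corresponding share of all measured genes was 51.2%. Cxcl13 and Cx3cl1 were below the floor in control liver, so they could count as measured only by being higher in L-Lpcat3 KO liver. Among the 16 ligands at or above the floor on both arrays, 2 were called higher and 12 were higher by any amount. Their median log2 ratio was 0.21. Of all 10973 such genes, 269 were higher by 2-fold or more and 49.6% by any amount.

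**Figure D1:**
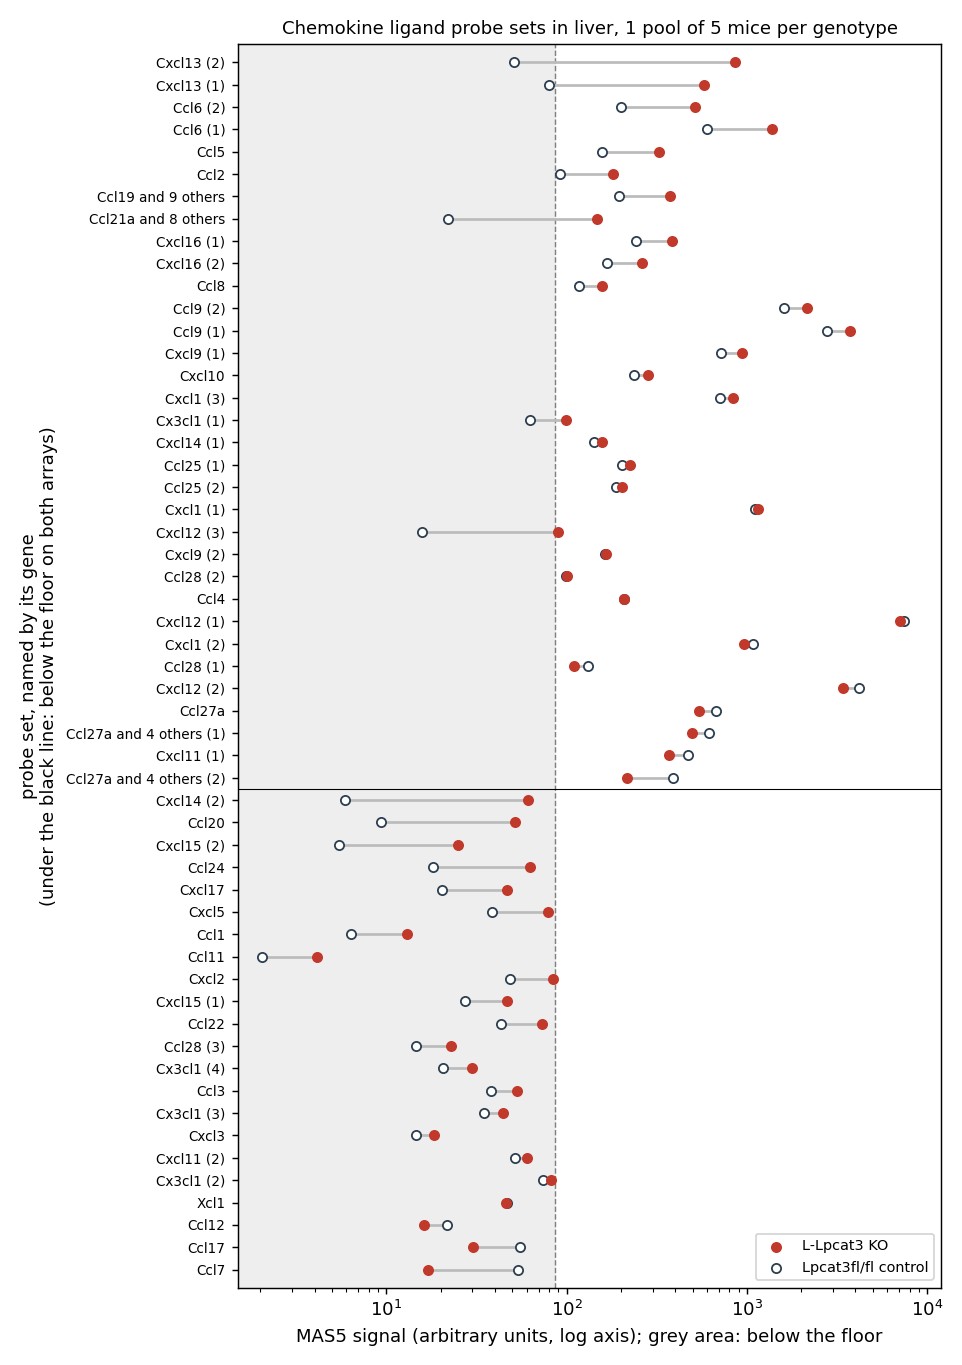
MAS5 signal of each ligand probe set (log axis, arbitrary units) in the L-Lpcat3 KO pool (filled) and the Lpcat3fl/fl control pool (open), ordered by log2 ratio. Cxcl13, Ccl6 and Ccl5 stand at the top; numbers in brackets tell probe sets of a gene apart, and the shaded area is below the floor of 86.6.

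Cxcl13, which attracts B cells through Cxcr5, differed the most of all members. Its representative probe set had a signal of 579 in L-Lpcat3 KO liver and 80.0, under the floor, in Lpcat3fl/fl control liver. The ratio was thus at least 6.68-fold higher, a log2 ratio of at least 2.74. A second Cxcl13 probe set had 856 in L-Lpcat3 KO liver and 51.1 in control liver, at least 9.89-fold higher. Both Cxcl13 probe sets were below the floor in control liver and well above it in L-Lpcat3 KO liver. The receptor Cxcr5, carried by B cells and follicular T cells, had 72.4 in L-Lpcat3 KO liver and 12.7 in control liver, below the floor on both arrays, so no ratio is given.

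Ccl6, a CC chemokine of mouse myeloid cells that acts through Ccr1, had 1379 in L-Lpcat3 KO liver and 602 in Lpcat3fl/fl control liver. The log2 ratio was 1.20, a 2.29-fold difference. Its second probe set had 516 in L-Lpcat3 KO liver and 201 in control liver, with a log2 ratio of 1.36. The 2 Ccl6 ratios differed by less than the pooled SD between probe sets. The study displayed selected immune genes from these same arrays, which may include Ccl6 and Cxcl13, and the present values are not independent evidence of that choice. It also reports real-time PCR of selected inflammation genes in several western-diet livers per genotype, and its primers include a pair for Ccl6. Those PCR values were not used here.

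Ccl5, which attracts T cells, NK cells and monocytes, had 325 in L-Lpcat3 KO liver and 158 in Lpcat3fl/fl control liver. Its single probe set gave a log2 ratio of 1.04, just past 2-fold. Ccl2, the main attractant of Ccr2-bearing monocytes, fell just short of that line. Its signal was 182 in L-Lpcat3 KO liver and 91.9 in control liver, close to the floor, with a log2 ratio of 0.98. Among measured genes with a mean signal from 200 to 400, the middle 95% of log2 ratios ran from -0.73 to 1.23, and below 200 from -0.79 to 1.18. Ccl5 and Ccl2 lay inside those ranges, whereas Cxcl13 lay outside. For Ccl6 the range at signals from 400 to 1000 was -0.62 to 0.91, and Ccl6 lay above it.

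The promoter letters are shown for the members called higher that have an entry in the RefSeq table, Cxcl13, Ccl6 and the receptor Ccr2, and beside them for Ccl9, the neighbour of Ccl6, and Cxcl1, a neutrophil attractant, which were not called. Each line holds the 100 bases before the RefSeq gene start, 5′ to 3′ on the strand of the gene, in build GRCm38.p6. They lie at chr5:95956839-95956938 (plus strand) for Cxcl13, chr11:83593088-83593187 (minus strand) for Ccl6, chr9:124102083-124102182 (plus strand) for Ccr2, chr11:83578637-83578736 (minus strand) for Ccl9 and chr5:90891145-90891244 (plus strand) for Cxcl1. Capitals mark matches to the motifs searched.
Cxcl13: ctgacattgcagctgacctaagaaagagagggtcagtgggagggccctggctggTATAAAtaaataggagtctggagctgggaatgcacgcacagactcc
Ccl6: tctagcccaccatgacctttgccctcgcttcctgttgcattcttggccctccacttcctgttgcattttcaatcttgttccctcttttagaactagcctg
Ccr2: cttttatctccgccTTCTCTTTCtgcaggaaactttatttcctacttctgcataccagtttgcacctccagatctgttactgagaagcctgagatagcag
Ccl9: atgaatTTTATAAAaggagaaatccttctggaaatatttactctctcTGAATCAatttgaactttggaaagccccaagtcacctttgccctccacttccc
Cxcl1: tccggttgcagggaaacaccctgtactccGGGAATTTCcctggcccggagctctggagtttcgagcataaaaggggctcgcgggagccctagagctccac

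The motifs were a TATA box (TATAAA), a kappaB site (GGGANTTTC), an interferon response core (GAAANNGAA), a PU.1 core (GAGGAA) and an AP-1 site (TGANTCA), searched on both strands in the 250 bases before the start. A promoter was found for 42 of the 55 member genes. A member gene was counted if any of its promoters matched, while the shares over all promoters count each promoter. The TATA letters were in 14 of the 42 and in 12.4% of all 32851 promoters in the table. In the Cxcl13 promoter they begin 46 bases before the start, and in the Ccl9 promoter the run in capitals holds 2 overlapping matches, 1 on each strand. The kappaB letters were in 6 of the 42, those of Cxcl1, Cxcl2, Cxcl3, Cxcl9, Cxcr2 and Ccr3, and in 0.941% of all promoters. Of these 6 genes only Cxcl1 and Cxcl9 were measured, and neither was called. Interferon response letters were also in 6, among them Cxcl9, Cxcl10 and Ccr2, and in 7.13% of all promoters; that of Ccr2 is on the opposite strand. The PU.1 letters were in 12 member promoters and 23.3% of all, and the AP-1 letters in 5 member promoters and 6.75% of all. No motif searched lay in the 250 bases before Ccl6. A match is a description of the letters and not evidence of a bound site.

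The remaining inflammatory CC ligands showed smaller differences. Ccl9, a Ccr1 ligand of mouse macrophages, had 3719 in L-Lpcat3 KO liver and 2791 in Lpcat3fl/fl control liver, a log2 ratio of 0.41. A second Ccl9 probe set gave 2146 in L-Lpcat3 KO liver and 1597 in control liver, or 0.43, so both probe sets were alike and under 1.5-fold. Ccl8, a ligand of Ccr8 in the mouse, had 158 in L-Lpcat3 KO liver and 117 in control liver, a log2 ratio of 0.43. Ccl4, an attractant of T cells and monocytes, had 209 in L-Lpcat3 KO liver and 208 in control liver, with a log2 ratio of 0.01. All 6 measured inflammatory CC ligands were thus higher in L-Lpcat3 KO liver, Ccl4 by less than the shift between scalings, with a median log2 ratio of 0.71. The other 7 on the array, Ccl1, Ccl3, Ccl7, Ccl11, Ccl12, Ccl20 and Ccl24, were below the floor on both arrays.

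On chromosome 11, in the RefSeq gene order of GRCm38.p6, Ccl5, Ccl9, Ccl6, Ccl3 and Ccl4 are neighbours. Of these 5 genes 4 were measured and 2 passed 2-fold, with log2 ratios of 1.04 for Ccl5, 0.41 for Ccl9, 1.20 for Ccl6 and 0.01 for Ccl4. The neighbouring genes therefore did not differ by a like amount. In the other CC group of chromosome 11, Ccl2, Ccl7, Ccl11, Ccl12, Ccl8 and Ccl1, 2 of 6 genes were measured, Ccl2 and Ccl8, and neither reached 2-fold.

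Among the CXC ligands, Cxcl16, a membrane-bound ligand of Cxcr6 on NKT cells and T cells, had 384 in L-Lpcat3 KO liver and 244 in Lpcat3fl/fl control liver. The log2 ratio was 0.65, and the second Cxcl16 probe set, with 260 in L-Lpcat3 KO liver and 167 in control liver, gave 0.64. The 2 probe sets agreed closely at just over 1.5-fold. Cxcl14, a chemokine of epithelia, had 158 in L-Lpcat3 KO liver and 143 in control liver, a log2 ratio of 0.15.

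Cxcl12, which holds haematopoietic cells in their niches through Cxcr4, was well above the floor and did not reach 1.5-fold. It had 7027 in L-Lpcat3 KO liver and 7460 in Lpcat3fl/fl control liver, a log2 ratio of -0.09. A second probe set had 3419 in L-Lpcat3 KO liver and 4174 in control liver, or -0.29, and the third was near or below the floor. Cxcl1 likewise had 3 probe sets with log2 ratios of 0.06, -0.15 and 0.24. The first of these read 1152 in L-Lpcat3 KO liver and 1109 in control liver, so the direction for Cxcl1 depended on the probe set. The other neutrophil attractants of the ELR class, Cxcl2, Cxcl3, Cxcl5 and Cxcl15, were below the floor on both arrays.

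The interferon-inducible ligands of Cxcr3, which attract activated T and NK cells, did not share a direction. Cxcl9 had 942 in L-Lpcat3 KO liver and 717 in Lpcat3fl/fl control liver, a log2 ratio of 0.39, while its second probe set, with 165 in L-Lpcat3 KO liver and 164 in control liver, gave 0.01. Cxcl10 had 283 in L-Lpcat3 KO liver and 236 in control liver, a log2 ratio of 0.26. Cxcl11, a transcribed pseudogene in the RefSeq annotation of GRCm38.p6, had 370 in L-Lpcat3 KO liver and 470 in control liver, a log2 ratio of -0.35, the lowest of the measured ligands. None of the 3 reached 1.5-fold in either direction.

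Of 10 lymphoid and barrier ligands listed, 5 were analysed as genes and 3 were measured, with a median log2 ratio of -0.27. That median covers Ccl25, Ccl28 and Ccl27a alone. Ccl19, the Ccl21 genes and Ccl27b had only probe sets shared with other genes, which are given apart below. Ccl25, which guides Ccr9-bearing cells to thymus and small intestine, had 223 in L-Lpcat3 KO liver and 202 in Lpcat3fl/fl control liver, a log2 ratio of 0.14. Ccl28, a mucosal ligand of Ccr10, had 109 in L-Lpcat3 KO liver and 132 in control liver, or -0.27, and its second probe set gave 0.01. Ccl27a, a skin ligand of the same receptor, had 545 in L-Lpcat3 KO liver and 672 in control liver, or -0.30, on a probe set that can match several transcripts. Cx3cl1, a membrane-anchored ligand of Cx3cr1, had 98.9 in L-Lpcat3 KO liver and 63.0 in control liver, a log2 ratio of at least 0.19. Ccl25, Ccl28 and Ccl27a stayed under 1.5-fold, and for Cx3cl1 only the lower bound is known.

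The 4 probe sets with several gene symbols belong to ligands of Ccr7 and Ccr10. The probe set annotated to Ccl19 and 9 other symbols had 374 in L-Lpcat3 KO liver and 195 in Lpcat3fl/fl control liver, a log2 ratio of 0.94. That annotated to the Ccl21 genes had 147 in L-Lpcat3 KO liver and 21.9 in control liver, a log2 ratio of at least 0.76. L-Lpcat3 KO liver gave the higher value on both, and which copy gave the signal cannot be told. The 2 shared by Ccl27 genes went the other way, with 496 in L-Lpcat3 KO liver and 615 in control liver on one, and 215 in L-Lpcat3 KO liver and 391 in control liver on the other, log2 ratios of -0.31 and -0.86.

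Of the 22 receptor genes, 12 were measured, 5 of them on 1 array alone, and 10 were below the floor on both arrays. Ccr2 was higher by 2-fold or more in L-Lpcat3 KO liver and Ackr4 lower, 1 of 12 in each direction, beside the 2.70% and 0.700% of all measured genes. All 12 had a mean signal under 400, where the shares of genes were 4.48% and 1.08%. No receptor was higher by 2-fold under quantile normalisation, loess, a pseudocount of 50 or the mean of probe sets, and none was lower by 2-fold under the pseudocount, the mean of probe sets or without probe sets that match several transcripts. The median log2 ratio was 0.22, or 0.11 after loess. All measured genes with a mean signal under 200 had a median of 0.10, and those from 200 to 400 had 0.07. By any amount 11 of 12 were higher, or 8 of 12 after loess, when Ccr1, Cxcr3 and Cxcr6 changed sign, and 10 of 11 after quantile normalisation. With the 5 receptors measured on 1 array alone left out, 6 of 7 were higher. A gene below the floor in control liver can count as measured only by being higher in L-Lpcat3 KO liver, so the count of 11 is in part set by the floor.

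**Figure D2:**
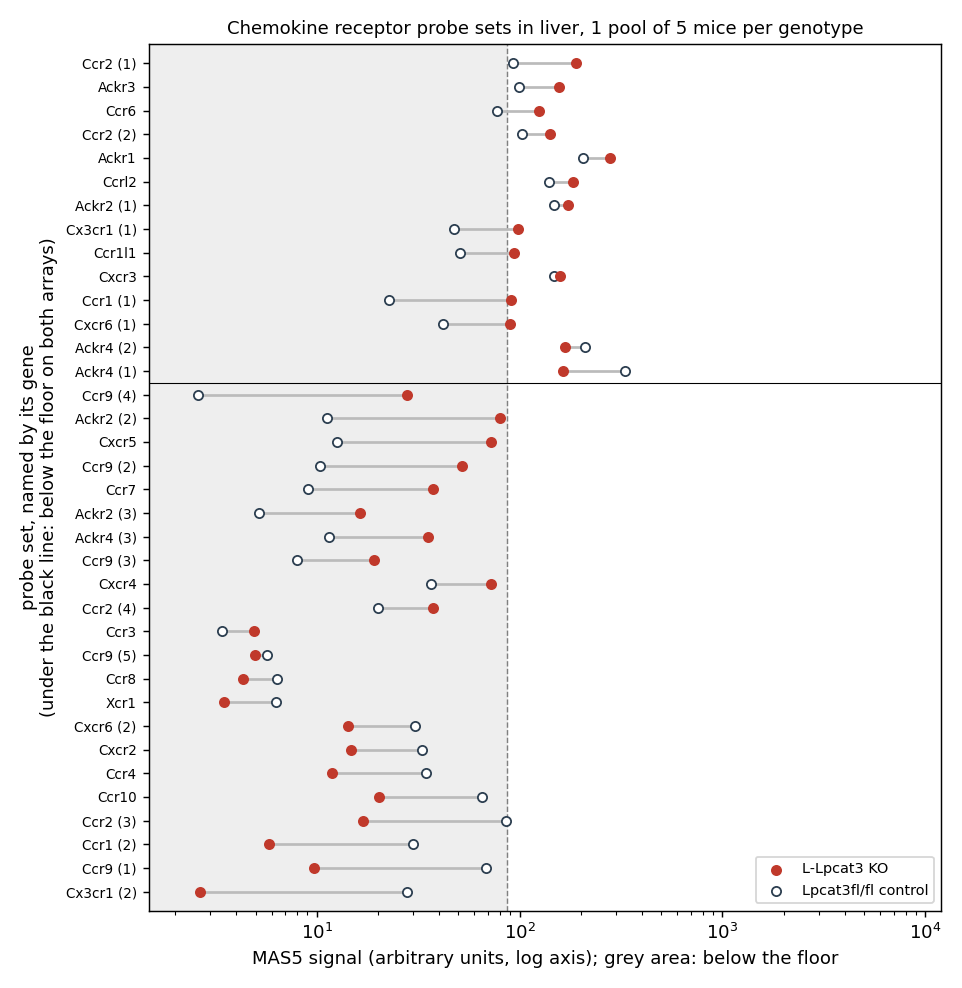
MAS5 signal of each receptor probe set (log axis, arbitrary units) in the L-Lpcat3 KO pool (filled) and the Lpcat3fl/fl control pool (open), ordered by log2 ratio. Ccr2 stands at the top and Ackr4 at the foot of the measured probe sets, and 22 of the 36 probe sets lie below the floor of 86.6 on both arrays, where the 2 pools differ in both directions.

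Ccr2, the receptor that brings monocytes out of the bone marrow, had 189 in L-Lpcat3 KO liver and 93.4 in Lpcat3fl/fl control liver. Its log2 ratio was 1.02, inside the range of genes with like signal. A second Ccr2 probe set had 142 in L-Lpcat3 KO liver and 103 in control liver, or 0.46. The other 2 were below the floor on both arrays and opposed each other, with 16.9 in L-Lpcat3 KO liver and 86.0 in control liver on one, and 37.3 in L-Lpcat3 KO liver and 20.1 in control liver on the other. Ccr2 was thus higher on both of its measured probe sets and past 2-fold on 1 of them.

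Ccr6, the receptor of Ccl20 on B cells and some T cells, had 125 in L-Lpcat3 KO liver and 77.4 in Lpcat3fl/fl control liver, a log2 ratio of at least 0.53. Cx3cr1, of monocytes and resident macrophages, had 98.8 in L-Lpcat3 KO liver and 47.5 in control liver, at least 0.19. Ccr1, the receptor of Ccl5, Ccl6 and Ccl9, had 90.7 in L-Lpcat3 KO liver and 22.7 in control liver, at least 0.07. These 3, with Ccr1l1 (93.6 in L-Lpcat3 KO liver and 50.6 in control liver) and Cxcr6, were over the floor in L-Lpcat3 KO liver and under it in control liver. Cxcr6, found on NKT cells and T cells, had 89.4 in L-Lpcat3 KO liver and 42.1 in control liver. The second probe sets of Ccr1, Cx3cr1 and Cxcr6 were below the floor on both arrays and read lower in L-Lpcat3 KO liver. Cxcr3, of activated T and NK cells, was measured on both arrays, with 159 in L-Lpcat3 KO liver and 148 in control liver, a log2 ratio of 0.11.

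All 5 atypical receptors were measured, and 4 were higher in L-Lpcat3 KO liver. Ackr3, a scavenger of Cxcl12, had 157 in L-Lpcat3 KO liver and 99.4 in Lpcat3fl/fl control liver, a log2 ratio of 0.66. Ackr1, which carries chemokines across venular endothelium, had 280 in L-Lpcat3 KO liver and 206 in control liver, a log2 ratio of 0.44. Ccrl2, which binds the chemoattractant chemerin, had 183 in L-Lpcat3 KO liver and 139 in control liver, or 0.39, and Ackr2, a scavenger of inflammatory CC chemokines, had 174 in L-Lpcat3 KO liver and 147 in control liver, or 0.24. Of these 4, Ackr3 alone passed 1.5-fold.

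Ackr4, a scavenger of Ccl19, Ccl21 and Ccl25, was the only member lower by 2-fold or more in L-Lpcat3 KO liver. Its representative probe set, of a kind that can match several transcripts, had 163 in L-Lpcat3 KO liver and 330 in Lpcat3fl/fl control liver, a log2 ratio of -1.02, outside the range of genes with like signal. A second probe set had 168 in L-Lpcat3 KO liver and 210 in control liver, a log2 ratio of -0.32. The third was below the floor on both arrays. The 2 measured probe sets were both lower but differed by more than the pooled SD, and without the first Ackr4 did not pass 1.5-fold.

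**Figure D3:**
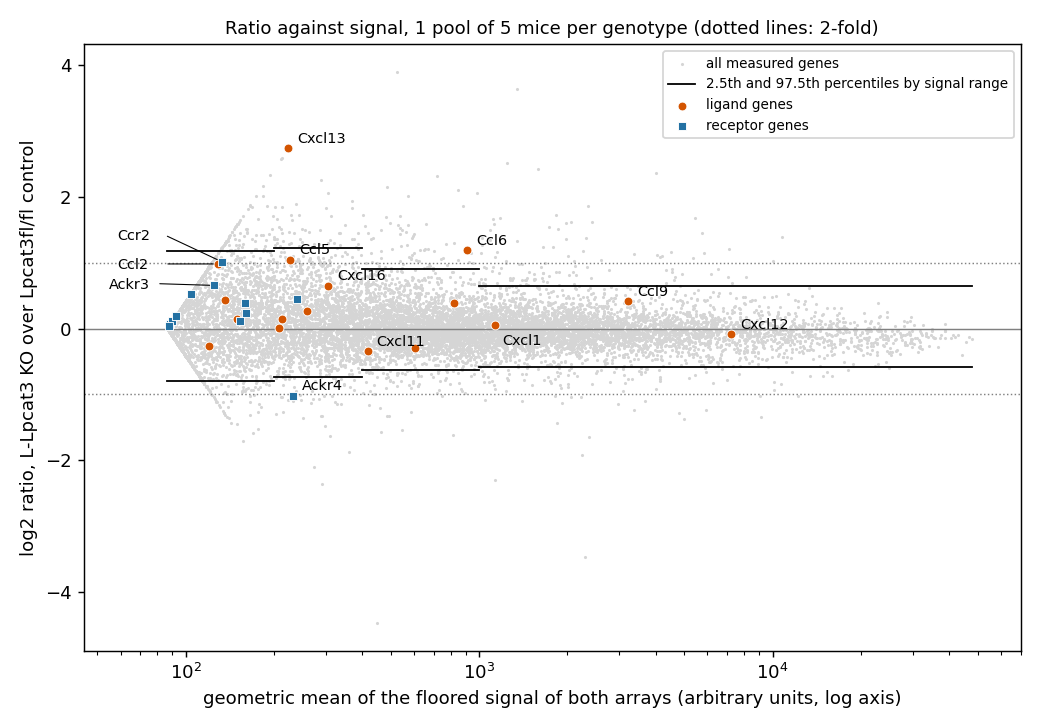
Log2 ratio of L-Lpcat3 KO over Lpcat3fl/fl control against the geometric mean signal of both arrays (log axis) for all measured genes (grey), ligands (circles) and receptors (squares), with lines at the middle 95% of genes in 4 ranges of signal. Cxcl13, Ccl6 and Ackr4 lie outside these lines, and the other 27 measured members lie inside.

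Ligands were set beside their receptors in 29 pairs on the array. In 10 pairs both genes were measured, in 7 the ligand alone, in 4 the receptor alone and in 8 neither. Ccl2 and Ccr2 were the pair in which both sides were near 2-fold, with log2 ratios of 0.98 for the ligand and 1.02 for the receptor. The second measured Ccr2 probe set gave 0.46. Both genes had control signals close to the floor, and both ratios lay inside the range of genes with like signal. Ccl6, with 1.20, and Ccl5, with 1.04, stood beside Ccr1, which reached the floor on the L-Lpcat3 KO array alone. Cxcl12, with -0.09, stood beside Ackr3, with 0.66, and beside Cxcr4, which was below the floor on both arrays. The receptors set beside Cxcl13, Cxcl1, Ccl8, Ccl25, Ccl27a and Ccl28 were also below the floor on both arrays.

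The genes below the floor have no ratio. Among the 15 such ligands, signals ran from 4.13 to 84.4 in L-Lpcat3 KO liver and from 2.04 to 55.2 in Lpcat3fl/fl control liver, and 11 of the 15 read higher in L-Lpcat3 KO liver. Among the 10 such receptors, Ccr3, Ccr4, Ccr7, Ccr8, Ccr9, Ccr10, Cxcr2, Cxcr4, Cxcr5 and Xcr1, signals ran from 3.51 to 72.4 in L-Lpcat3 KO liver and from 3.41 to 68.2 in control liver, and 4 of the 10 read higher in L-Lpcat3 KO liver. Of all 5903 genes below the floor on both arrays, 58.9% read higher in L-Lpcat3 KO liver. Ccr9 shows how little such values carry, since of its 5 probe sets, all below the floor, 3 read higher and 2 lower in L-Lpcat3 KO liver. Cxcr1 was not analysed here.

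The signalling genes downstream of chemokine receptors were taken from a list of G protein subunits, kinases, regulators and cytoskeletal partners. Of the 31 measured, 7 were higher by 2-fold or more in L-Lpcat3 KO liver and none was lower by that much, beside 2.70% and 0.700% of all measured genes, with a median log2 ratio of 0.31. Coro1a, an actin-binding protein of leukocytes, had 633 in L-Lpcat3 KO liver and 133 in Lpcat3fl/fl control liver, a log2 ratio of 2.26. Rgs1 and Rgs2, which shorten G protein signals, had log2 ratios of 1.67 and 1.64, and Grk3, which phosphorylates active receptors, 1.45. The other 3 were Gng2, Dock2 and Rac2, a G protein subunit, a Rac activator and a leukocyte Rac. Other members known from leukocytes did not pass 2-fold, among them Was with a log2 ratio of 0.42 and Vav1 with 0.31, and Plcb2, below the floor in L-Lpcat3 KO liver, had a log2 ratio of -0.48 or lower.

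Markers of several cell types also differed between the pools. All 11 macrophage markers were higher, 6 of them past 2-fold beside 2.70% of all measured genes, with a summed signal of 29135 in L-Lpcat3 KO liver and 13891 in Lpcat3fl/fl control liver and log2 ratios from 0.49 for Clec4f to 1.62 for C1qb. Of 7 measured B cell and plasma cell markers, 6 were at least 2-fold higher, and the sum over the 9 on the array was 5063 in L-Lpcat3 KO liver and 1187 in control liver. Of the 7, 4 were below the floor in control liver, among them Ms4a1, Cd79a and Cd79b, which define B cells. Such genes could count as measured only by being higher in L-Lpcat3 KO liver, so the count of 6 was in part set by the floor. Among 6 measured monocyte markers 2 were at least 2-fold higher, with a median log2 ratio of 0.77, and 2 of the 6 were below the floor in control liver. T cell, NK cell, neutrophil and dendritic cell markers had medians of 0.41, 0.50, 0.33 and 0.49, over 3, 4, 5 and 6 measured genes. Of these, 3, 2, 3 and 3 had 1 array below the floor, so that these medians were in part set by the floor. Cd3d, Cd4 and Cd8a of T cells were below the floor on both arrays. Endothelial and stellate cell markers had medians of 0.36 and 0.54, and 3 of 10 and 3 of 9 were at least 2-fold higher. Hepatocyte markers had a median of -0.25, and 8 of 9 were lower. In RNA of whole liver, fewer cells of a type and less RNA per cell cannot be told apart. The part of these markers in the values of the chemokines and receptors was not tested.

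**Figure D4:**
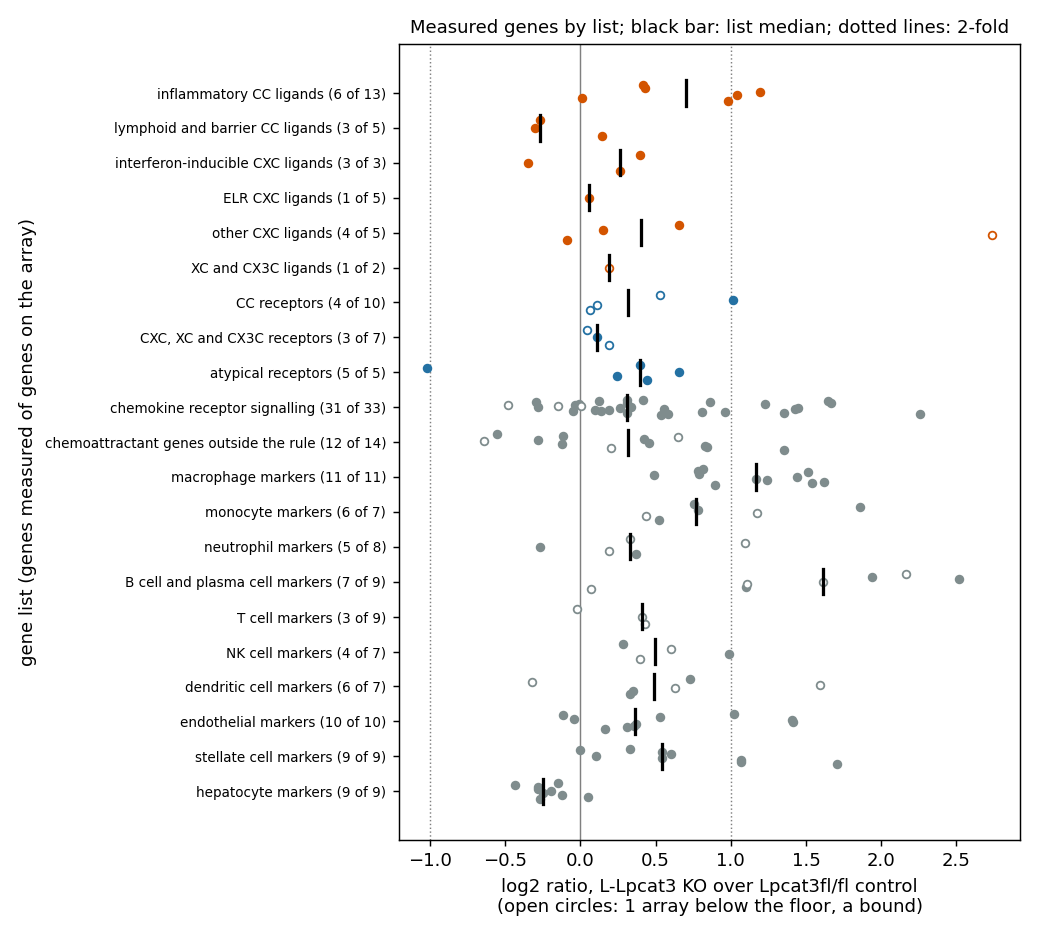
Log2 ratio of L-Lpcat3 KO over Lpcat3fl/fl control for each measured gene of the ligand classes (orange), receptor classes (blue) and other lists (grey), with the list median as a black bar and open circles for bounds. The medians lie at 0.71 for inflammatory CC ligands, 1.17 for macrophage markers, 1.61 for B cell and plasma cell markers and -0.25 for hepatocyte markers. That of B cell and plasma cell markers is in part set by the floor, since 4 of its 7 genes are bounds.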

How the data were processed

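Liver RNA, 1 pool of 5 mice per genotype, was hybridised to 1 array each. The deposited values are linear signal intensities that the authors made with MAS5 (submitters' processing notes, no version given) and analysed in GenespringGX per the methods. Global scaling sets the trimmed mean to 500 and assumes that most transcripts are alike. Signals near the floor carry the most noise, and no detection calls were used. The chow arrays were not analysed here.

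Gene names came from the platform annotation and were brought up to date with RefSeq of GRCm38.p6. Of 45101 probe sets, 34945 that were not controls had 1 symbol, 932 had several and 9211 none. The 64 controls were left out of the first of these counts only, so they overlap with the others. Of 18193 genes, 18031 had a RefSeq identifier. The floor was the median of all values. Ratios (L-Lpcat3 KO over control, log2) were taken from the brightest probe set of a gene by mean log2 signal, and calls were made at 2-fold. The step was tested on simulated data with changes planted only in genes well above the floor, so that test does not cover members near the floor. With 1 array per genotype the number of arrays limits the precision.

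Every member could be named, with all probe sets for those past 2-fold. Of the signalling list, named genes were those past 2-fold, the largest first. Was, Vav1, Plcb2, the lowest and highest macrophage markers and the B cell and T cell markers below the floor were named after their values were seen. The members and lists were chosen with earlier results of these data known.

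The alternatives were median centring, quantile normalisation, loess (span 0.3), no floor, a lower (25th percentile) or higher (75th percentile) floor, a pseudocount of 50, the mean of measured probe sets, the omission of probe sets with IDs ending in _x_at or _s_at, which can match several transcripts, genes above the floor on both arrays, and thresholds of 1.5-fold and 3-fold. The tools were matplotlib 3.10.9, statsmodels 0.14.6, scipy 1.17.1, pandas 2.3.3 and numpy 2.4.6 under Python 3.11.15.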

Additional observations from a re-analysis of the deposited data

How the results depend on the processing

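With 1 pool per genotype the spread between mice is unknown, and no replicate could be left out. No paired analysis was possible because each genotype has 1 pool. Ccl6 was past 2-fold under all 10 other ways of making the ratio, with log2 ratios from 1.13 to 1.28. Cxcl13 was past 2-fold under 8 of 9, from 0.51 to 3.02, the lowest with the floor at the 75th percentile. Ccl5 passed in 6 of 9, from 0.85 to 1.04, Ccr2 in 5 of 9, from 0.74 to 1.02, and Ackr4 in 6 of 9, from -1.11 to -0.32. Of 268 member values under the alternatives, 250 differed from the reported value by less than the pooled SD between probe sets, 18 by more, and no called member changed sign.

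Quantile normalisation and loess each left 0 receptors at least 2-fold higher. A pseudocount of 50 and the mean of probe sets left 0 receptors higher and 0 lower, and without the probe sets prone to match several transcripts 0 receptors were lower. With the floor at the 25th percentile, 6 of 29 measured ligands were higher and 1 lower, and 5 of 19 measured receptors higher and 3 lower. The receptor median was then 0.55, and of all 16117 genes measured at that floor 1132 were higher and 479 lower. With the floor at the 75th percentile, 1 of 8 measured ligands was higher. At that floor 0 receptors were higher or lower because none was measured, and no receptor median could be had. Of all 7452 genes measured there, 88 were higher and 25 lower. Without a floor, 4 of 12 measured receptors were higher and the receptor median was 0.67. Of all 12290 measured genes, 654 were then higher and 242 lower, against 332 and 86 with the floor. At 1.5-fold, 5 of 18 ligands and 2 of 12 receptors were higher, and of all 12290 measured genes 1115 were higher and 471 lower. At 3-fold, 1 of 18 ligands and 0 of 12 receptors were higher, 0 receptors lower, and of all 12290 measured genes 55 were higher and 11 lower. Apart from what the floor and threshold fix by construction, the cause of these changes was not tested.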

Other observations

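Chemoattractants and receptors whose symbols fall outside the chemokine nomenclature did not show 1 direction. Of 12 measured genes on this list, 7 were higher and 5 lower in L-Lpcat3 KO liver, beside 51.2% of all measured genes higher. Of the 12, 1 was at least 2-fold higher and none at least 2-fold lower, beside 2.70% and 0.700% of all measured genes. The median log2 ratio was 0.31. C3ar1, a complement receptor of myeloid cells, had a signal of 268 in L-Lpcat3 KO liver and 105 in Lpcat3fl/fl control liver, a log2 ratio of 1.36. Cklf, a chemokine-like factor, had 333 in L-Lpcat3 KO liver and 185 in control liver, or 0.85, and the chemerin receptor Cmklr1 had 161 in L-Lpcat3 KO liver and 90.8 in control liver, or 0.83. Gpr183, which guides B cells along oxysterol gradients, had 71.7 in L-Lpcat3 KO liver and 135 in control liver, a log2 ratio of -0.64 or lower, and S1pr1, which lets lymphocytes leave lymphoid organs, had 587 in L-Lpcat3 KO liver and 862 in control liver, or -0.55. Rarres2, the gene of chemerin, had the list's highest signal and a log2 ratio of -0.12. Markers of bile ducts, mesothelium and fat were measured for 2, 1 and 2 genes, with median log2 ratios of -0.10, 0.82 and 1.60. Of these, 1, 1 and 2 had 1 array below the floor. All those of mesothelium and fat were below it in control liver. They could count as measured only by being higher in L-Lpcat3 KO liver, so their medians are bounds whose direction the floor sets. These markers were described after their values were seen.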
